A study of Mus musculus with 16 samples.

Results

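The early growth response genes Egr1, Egr2, Egr3 and Egr4, the orphan nuclear receptor genes Nr4a1, Nr4a2 and Nr4a3, and Btg2 were followed in sorted cells from the olfactory mucosa of mice, the tissue of the nose that holds the odour-sensing neurons. They were chosen by gene symbol, as the rows of the array annotation that carry one of these names, and make up 8 of 19505 genes with a symbol and 10 of 22206 probe sets. Egr3 had 3 probe sets and the others 1 each, and the Egr3 probe set with the highest mean over all arrays stands for the gene. RNA was measured on 16 Clariom S arrays. All mice were C57BL/6 carrying an S100a5-tauGFP reporter, named for S100a5, a calcium-binding protein gene of olfactory neurons whose level is known to rise with their activity. Mice of both sexes aged 7 to 12 weeks, 24 in all, were kept singly in chambers under clean air flowing at 3.1 L/min for 40 h. From 26 h on they received puffs of undecanal, a fatty aldehyde odorant, or of filtered air as the vehicle, each lasting 10 s and repeated every 20 min. Mice were pooled by 3 into 4 vehicle and 4 undecanal pools, and the dissociated mucosa of each pool was sorted by fluorescence into GFP+ and GFP- cells. This gives 4 groups of 4 arrays, and p-values measure the spread between the arrays of a group, each from its own pool. The main fit does not pair both fractions of a pool, and a block for the pool was run as an alternative.

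The titles and the characteristics gave opposite GFP signs for 16 of 16 samples. Fractions are named here by the titles, so every fraction difference is titled GFP+ minus titled GFP-, and would change sign under the characteristics, while a difference between undecanal and vehicle would keep its sign and move to the other fraction. The interaction of agent and fraction would change sign too. S100a5 was lower in the titled GFP+ fraction in 8 of 8 pools, with log2 differences of -0.91 for vehicle (limma adjusted p = 0.000715) and -0.97 for undecanal (adjusted p = 0.000394). Omp, the marker of mature olfactory neurons, did not pass (adjusted p = 0.988 and 0.845). Which field is right was not tested, so a higher value in the titled GFP+ fraction is not to be read as higher in cells with the reporter. In vehicle pools 1959 probe sets passed as higher and 1138 as lower in the titled GFP+ fraction. With arrays centred on their median the same counts were 1570 and 11231, with quantile normalization 1876 and 1830, and with arrays centred on mature neuron genes 2613 and 507. The median of all probe sets was -0.11 as deposited and -0.47, -0.11 and 0.08 under those scalings, in that order. A value is called below background when its group mean is under log2 4.80, the 95th percentile of group means of 358 probe sets for vomeronasal and bitter taste receptors.

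Egr proteins are zinc finger transcription factors, Nr4a proteins are nuclear receptors that act without a known ligand, and Btg2 is an antiproliferative protein that binds the CCR4-NOT deadenylase. Their genes are immediate early genes: signals through ERK kinase, serum response factor and the cAMP-responsive factor CREB switch them on within minutes and without new protein synthesis. In olfactory neurons Egr1 serves as a readout of recent activity, and in myeloid cells Egr1, Egr2 and Nr4a1 take part in differentiation of monocytes.

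Sequence motifs known to be bound by CREB, serum response factor, Egr and Nr4a proteins were looked for upstream of the genes. RefSeq (GRCm38.p6) promoter windows of 250 bases before the gene start were searched for 6 of the 8 genes, namely Btg2, Egr2, Egr4, Nr4a1, Nr4a2 and Nr4a3. Both strands were searched for the cAMP response element TGACGTCA, its core TGACG (which overlaps it), the CArG box of serum response factor, the EGR site GCGNGGGCG, the NR4A site AAAGGTCA and the TATA box TATAAA. The core was present in at least 1 window of 6 of 6 genes, against 19.8% of the 27025 genes of the table, also counted by gene. Windows on the chromosome of Egr1 were left out for the 8 genes but kept in the shares of the table. Btg2 held the full cAMP response element, present in 1.77% of genes, and an EGR site, present in 5.33%. Windows of Btg2, Nr4a2 and Egr4 are printed in full, with matches in capitals, because they set 2 genes with large differences between the fractions beside 1 at background.
Btg2, chr1:134079156-134079405, minus strand: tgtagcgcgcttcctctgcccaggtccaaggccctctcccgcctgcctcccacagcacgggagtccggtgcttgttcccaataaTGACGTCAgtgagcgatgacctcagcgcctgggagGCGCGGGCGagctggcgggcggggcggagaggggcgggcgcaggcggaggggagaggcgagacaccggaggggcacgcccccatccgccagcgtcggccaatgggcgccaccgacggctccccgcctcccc
Nr4a2, chr2:57124004-57124253, minus strand: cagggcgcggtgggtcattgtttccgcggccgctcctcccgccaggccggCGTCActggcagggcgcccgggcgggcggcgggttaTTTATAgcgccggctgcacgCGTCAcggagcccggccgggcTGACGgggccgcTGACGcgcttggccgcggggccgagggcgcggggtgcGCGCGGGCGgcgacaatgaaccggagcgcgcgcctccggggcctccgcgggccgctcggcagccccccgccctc
Egr4, chr6:85513590-85513839, minus strand: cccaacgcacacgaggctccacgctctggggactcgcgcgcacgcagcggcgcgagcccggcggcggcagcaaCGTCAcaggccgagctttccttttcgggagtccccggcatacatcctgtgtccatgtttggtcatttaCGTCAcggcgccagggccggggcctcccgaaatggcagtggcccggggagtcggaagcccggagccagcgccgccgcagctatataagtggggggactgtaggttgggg
Nr4a2 carried 4 cores, 1 EGR site and 1 match to the TATA box pattern. That match lies on the strand opposite to the gene, 164 bases before the gene start. Egr4 carried 2 cores, so the core was present both in the gene at background and in the others. Near the gene start, the printed Egr4 window also holds a stretch resembling a TATA box. This stretch differs from the exact pattern searched and was not counted. For Egr2, Nr4a1 and Nr4a3, whose windows overlap the annotated span of the gene itself, only short stretches are given.
Egr2, chr10:67537797-67537818, plus strand: CCATATATGGgcagcgaCGTCA
Nr4a1, chr15:101266777-101266794, plus strand: CGTCAgtggCGCCCCCGC
Nr4a3, chr4:48045092-48045104, plus strand: CGTCAcatTGACG
The Egr2 stretch pairs a CArG box with a core, the Nr4a1 stretch pairs a core with an EGR site, and the Nr4a3 stretch holds 2 cores on opposite strands. A CArG box was present in 1.62% of genes and in 4 of 5 Egr2 windows. The Egr2 windows with the box of the printed stretch overlap, and another window held CCTTTTTTGG and no core. The NR4A site was found in 0 of the 6 genes, against 1.55% of genes in the table. These matches are letters in a window, and binding was not measured.

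The first comparison asked how the genes differ between the sorted fractions. In vehicle pools 6 of 8 genes (Egr1, Egr2, Nr4a1, Nr4a2, Nr4a3 and Btg2) passed as higher in the titled GFP+ fraction, 0 passed as lower, and the same 6 passed in undecanal pools. Over all probe sets 13.9% passed in either direction (8.82% as higher and 5.12% as lower) with vehicle, and 13.2% (8.83% as higher and 4.36% as lower) with undecanal. The groups did not overlap for 6 of 8 genes in either agent, against 18.1% and 17.3% of all probe sets. The median difference of the 8 genes was 4.12 log2 units in vehicle and 3.19 in undecanal pools, against -0.11 and -0.11 for all probe sets. Both medians of the 8 genes lie midway between Nr4a2 and Nr4a3, whose titled GFP- arrays lay partly or wholly below background. The bounds for these genes, given below, are smaller, so the medians and their change with undecanal rest partly on background signal. In bulk samples, fewer cells of a type and less RNA per cell cannot be told apart.

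**Figure D1:**
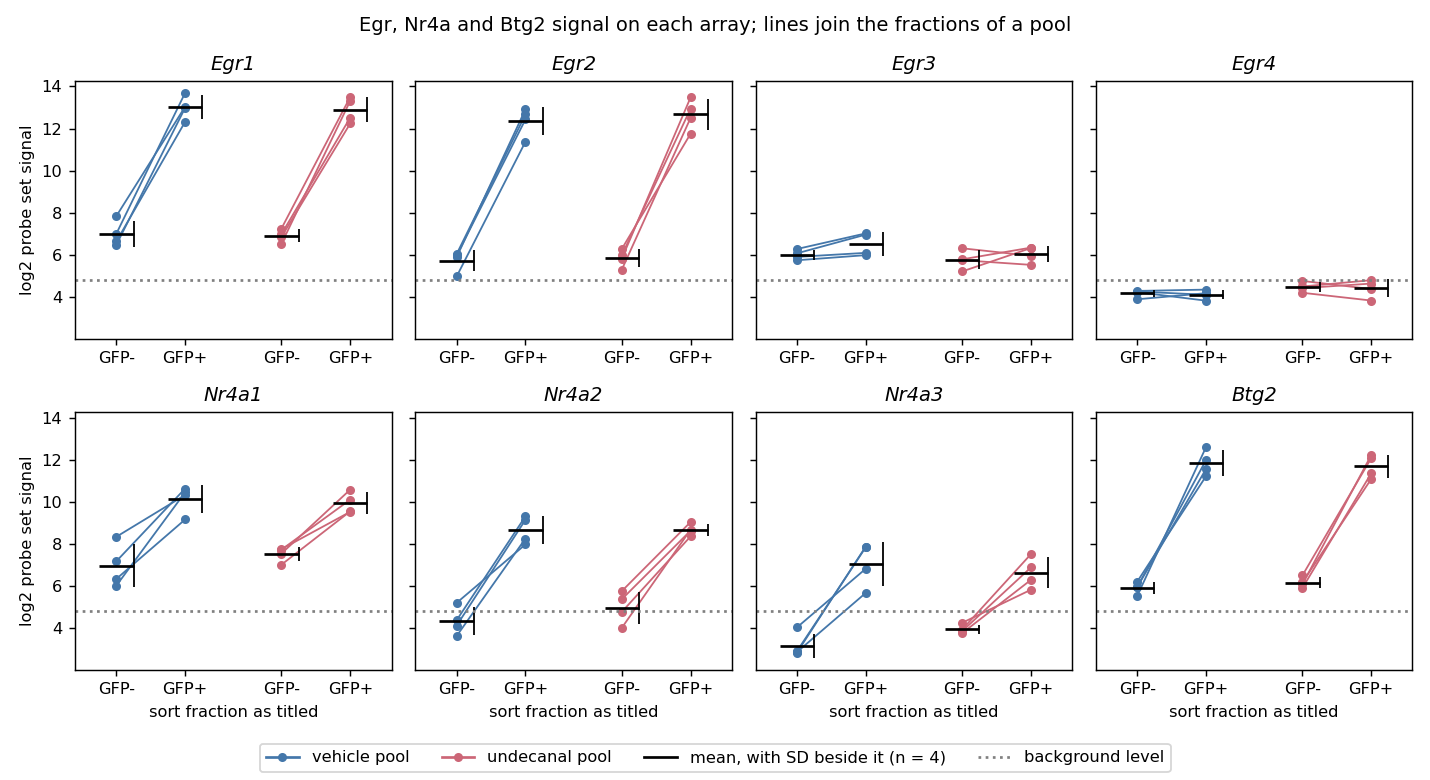
Log2 signal of the 8 genes on each of 16 arrays, by agent and titled fraction, with group means and SD (n = 4) and with both fractions of a pool joined; the dotted line is the background level of 4.80. Egr1, Egr2, Nr4a1, Nr4a2, Nr4a3 and Btg2 lie apart between the fractions, Egr3 overlaps and Egr4 stays under the background line in all 4 group means.

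Egr1 encodes the factor most used to read recent activity. Its log2 signal was 13.70, 13.04, 12.33 and 12.99 in titled GFP+ arrays of vehicle pools and 13.50, 13.32, 12.24 and 12.52 in those of undecanal pools. In titled GFP- arrays it was 7.01, 7.84, 6.64 and 6.48 for vehicle and 7.25, 6.53, 6.86 and 6.99 for undecanal. Every titled GFP+ array lay above every titled GFP- array, and the agents overlapped within each fraction. The difference was 6.02 log2 units in vehicle pools (95% interval 5.32 to 6.72, 64.9-fold, limma adjusted p = 3.99e-10) and 5.99 in undecanal pools (5.29 to 6.69, 63.6-fold, adjusted p = 3.99e-10). Within single pools it ran from 5.20 to 6.79.

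Egr2 encodes a related factor, known for myelination in Schwann cells and for its role in immune cells. It gave 12.91, 12.67, 11.38 and 12.43 in titled GFP+ arrays of vehicle pools and 12.94, 13.48, 12.50 and 11.75 in those of undecanal pools. In titled GFP- arrays it gave 5.90, 6.04, 4.98 and 5.98 for vehicle and 5.98, 5.82, 5.29 and 6.28 for undecanal. The fractions were again fully apart. The difference of 6.62 log2 units in vehicle pools (5.85 to 7.40, 98.7-fold, limma adjusted p = 3.99e-10) and of 6.82 in undecanal pools (6.05 to 7.60, 113-fold, adjusted p = 2.62e-10) was the largest measured among the 8 genes.

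Btg2 is the antiproliferative gene of the set. Titled GFP+ arrays read 12.60, 11.98, 11.22 and 11.56 in vehicle and 12.21, 12.07, 11.08 and 11.35 in undecanal pools. Titled GFP- arrays read 5.53, 5.95, 6.21 and 5.96 in vehicle and 6.08, 6.50, 6.17 and 5.90 in undecanal pools. The highest titled GFP- array (6.50) lay below the lowest titled GFP+ array (11.08). The differences were 5.93 (5.33 to 6.53, 60.9-fold, limma adjusted p = 6.21e-11) and 5.52 (4.92 to 6.11, 45.7-fold, adjusted p = 1.57e-10) log2 units.

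The nuclear receptor genes follow. Nr4a1, which encodes Nur77, read 10.63, 10.46, 9.16 and 10.32 in titled GFP+ arrays of vehicle pools and 10.58, 10.10, 9.53 and 9.55 in those of undecanal pools. Its titled GFP- arrays read 7.18, 6.02, 6.34 and 8.34 for vehicle and 7.54, 7.73, 7.75 and 7.02 for undecanal, so the fractions did not overlap although the vehicle arrays titled GFP- were spread widely (SD 1.04, n = 4). The difference was 3.17 log2 units in vehicle pools (2.29 to 4.06, 9.03-fold, limma adjusted p = 2.1e-05) and 2.43 in undecanal pools (1.55 to 3.31, 5.39-fold, adjusted p = 0.000377).

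Nr4a2 encodes Nurr1, known from dopamine neurons. Titled GFP+ arrays read 9.15, 9.31, 7.98 and 8.25 in vehicle and 8.67, 9.04, 8.36 and 8.63 in undecanal pools. Titled GFP- arrays read 4.12, 4.38, 5.20 and 3.63 in vehicle, with a mean below background, and 4.01, 5.76, 4.77 and 5.37 in undecanal pools. In vehicle pools the titled GFP+ mean was therefore at least 13.7-fold higher, taking for each titled GFP- array the higher of its own value and the background level (fitted difference 4.34 log2 units, limma adjusted p = 1.24e-07). In undecanal pools 2 of 4 titled GFP- arrays were below background, and the same floor gave at least 11.3-fold (fitted difference 3.70 log2 units, adjusted p = 9.9e-07).

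Nr4a3 encodes NOR-1. It read 7.85, 7.88, 5.67 and 6.82 in titled GFP+ arrays of vehicle and 6.29, 7.51, 5.82 and 6.88 in those of undecanal pools. Titled GFP- arrays read 2.90, 2.84, 2.86 and 4.03 for vehicle and 3.76, 3.93, 4.25 and 3.85 for undecanal, all under the background level. The bounds were thus at least 4.77-fold higher in vehicle pools and at least 3.54-fold higher in undecanal pools (fitted differences 3.89 and 2.68 log2 units, limma adjusted p = 2.46e-06 and 0.000191). Against the level of the negative control probe sets (log2 8.70) all 8 genes would be below background in the titled GFP- arrays, and the bounds in vehicle pools would be at least 19.9-fold for Egr1, 12.5-fold for Egr2, 8.81-fold for Btg2 and 2.71-fold for Nr4a1, with none for Nr4a2 and Nr4a3. Each of the 6 genes was higher in the titled GFP+ fraction in 8 of 8 pools, and each kept its call under every alternative tried.

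Egr3 and Egr4 did not pass. Egr3, a factor related to Egr1, read 6.96, 7.02, 5.99 and 6.10 in titled GFP+ and 6.07, 6.28, 5.74 and 5.90 in titled GFP- arrays of vehicle pools. In undecanal pools it read 6.34, 6.32, 5.53 and 5.96 against 5.79, 5.21, 5.75 and 6.31. The groups overlapped, with differences of 0.52 (-0.05 to 1.08, limma adjusted p = 0.243) and 0.27 (-0.29 to 0.84, adjusted p = 0.592) log2 units. The probe set of Egr3 that lies on an assembled chromosome was below background in all 4 groups and differed by 0.97 (adjusted p = 0.0113) and 0.81 (adjusted p = 0.0368), and the remaining probe set by 0.49 (adjusted p = 0.066) and 0.04 (adjusted p = 0.915), so the 3 probe sets disagreed on the call. Egr4, a factor of the same family that is known from brain, was below background in all 4 groups, with group means from 4.11 to 4.47, and differences of -0.05 (-0.46 to 0.36) and -0.06 (-0.47 to 0.35).

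**Figure D2:**
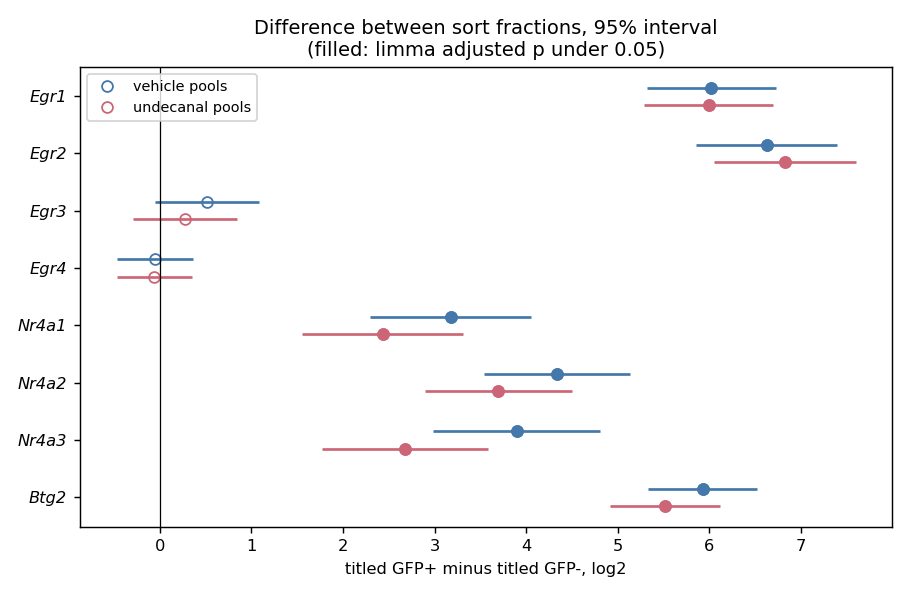
Difference between titled GFP+ and titled GFP- arrays in log2 units (x axis) for each gene, in vehicle and in undecanal pools; points are limma estimates, bars 95% intervals, and filled points passed an adjusted p of 0.05. Egr1, Egr2 and Btg2 lie between 5.52 and 6.82, Nr4a1 at 3.17 and 2.43, and Nr4a2 and Nr4a3, whose titled GFP- arrays lay partly or wholly below background, between 2.68 and 4.34, while the intervals of Egr3 and Egr4 include 0.

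For Egr1, Egr2, Nr4a1, Nr4a2, Nr4a3 and Btg2 both titled GFP+ groups ranked above both titled GFP- groups, and neighbours of 1 fraction in that order did not differ beyond their spread. Egr3 ran from vehicle titled GFP+ (6.52) through undecanal titled GFP+ (6.04) and vehicle titled GFP- (6.00) to undecanal titled GFP- (5.76). For Egr4 the order was undecanal titled GFP- (4.47), undecanal titled GFP+ (4.41), vehicle titled GFP- (4.17) and vehicle titled GFP+ (4.11), and no neighbours differed beyond their spread.

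The second comparison asked whether the odorant changed these genes. With limma 0 of 8 passed in either fraction, in either direction, and 0 had an unadjusted p under 0.05, against 603 (2.72%) of all probe sets in titled GFP+ and 914 (4.12%) in titled GFP- arrays. After adjustment 0.0045% of probe sets passed in titled GFP+ (Pcdh10 alone, 1.91 log2 units higher with undecanal, adjusted p = 0.00205, or 0.13 when the fit held just the 8 titled GFP+ arrays) and 0% in titled GFP- arrays. Vehicle and undecanal overlapped for 8 of 8 genes in each fraction, while 1.87% of all probe sets in titled GFP+ and 2.2% in titled GFP- arrays did not overlap. The intervals bound what these arrays could show. In titled GFP+ arrays the differences ran from -0.48 for Egr3 (-1.05 to 0.09) to 0.32 for Egr2 (-0.45 to 1.09), with Egr1 at -0.12 (-0.82 to 0.59), Btg2 at -0.16 (-0.76 to 0.43) and Nr4a2 at 0.00 (-0.80 to 0.80), so both a fall by 0.82 and a rise of 0.59 in Egr1 lie within its interval. The median was -0.14, against 0.01 for all probe sets.

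Of the estimates in titled GFP- arrays, 6 of 8 were above 0 and the median was 0.28, against 0.00 for all probe sets. That median lies midway between Btg2 (0.25) and Egr4 (0.30), and Egr4 was below background in every group. The share of all probe sets with an estimate above 0 was not counted. Nr4a1 differed by 0.54 (-0.34 to 1.42, limma adjusted p = 1). Nr4a3 was below background in both groups and Nr4a2 in the vehicle group, so their estimates of 0.79 (-0.12 to 1.70) and 0.64 (-0.15 to 1.44) are given with no fold. The fraction difference of Nr4a1 changed by -0.74 log2 units with undecanal (-1.99 to 0.51, limma adjusted p = 1) and that of Btg2 by -0.41 (-1.26 to 0.43). For Nr4a2 and Nr4a3 the change rests on titled GFP- values below background and is not given. The limma test of this interaction passed for 0 of 8 genes and 0 of all probe sets, with 0 of 8 genes and 584 (2.63%) of all probe sets at an unadjusted p under 0.05.

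**Figure D3:**
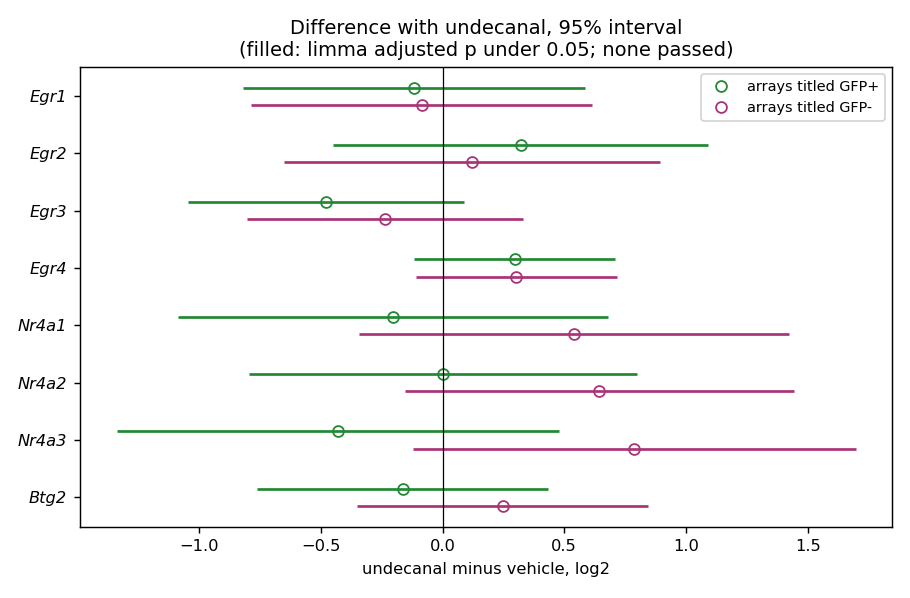
Difference between undecanal and vehicle in log2 units (x axis) for each gene, in titled GFP+ and titled GFP- arrays; points are limma estimates and bars 95% intervals. All 16 intervals include 0; Egr4 and, in titled GFP- arrays, Nr4a3 were below background in both agents.

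Pairs of these genes tended to lie on the same side of their group mean in the titled GFP+ arrays of a pool. Deviations from the mean of each agent were compared for 28 pairs of genes over 8 arrays, with a two-sided exact permutation test over 576 arrangements within agent, whose smallest p is 0.00174. Pearson's r was positive for 25 of 28 pairs, with a median of 0.710, and 5 pairs passed adjustment over the 28 (adjusted p = 0.0486 each). Egr1 and Btg2 gave r = 0.975 (exact permutation p = 0.00174) and Spearman's rho = 1, and r = 0.960 without the 2 arrays farthest from the median of Egr1. Nr4a2 and Nr4a3 gave r = 0.926 (exact permutation p = 0.00521) and rho = 0.810 (exact permutation p = 0.0174), and r = 0.868 without 2 arrays. Egr1 with Nr4a1 gave r = 0.909 and rho = 0.905 (0.901 without 2 arrays). Egr3 with Btg2 gave r = 0.898 and rho = 0.833 (0.788), and Egr1 with Egr3 r = 0.817 and rho = 0.833 (0.703). Adjusted on rho, 4 pairs passed: Egr1 with Btg2, Egr1 with Nr4a1, Nr4a1 with Btg2 and Egr3 with Nr4a1. Nr4a2 with Nr4a3, Egr1 with Egr3 and Egr3 with Btg2 did not pass on rho (exact permutation, adjusted p = 0.0648 each).

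Vehicle pool 3 had the lowest titled GFP+ value among vehicle pools for Egr1, Egr2, Egr3, Nr4a1, Nr4a2, Nr4a3 and Btg2, and vehicle pools 1 and 2 lay above the group mean for all 8 genes. Undecanal pool 3 likewise had the lowest titled GFP+ value among undecanal pools for Egr1, Egr3, Nr4a1, Nr4a2, Nr4a3 and Btg2, but not for Egr2 or Egr4. With arrays centred on their median 2 pairs passed on r, Egr1 with Btg2 and Nr4a2 with Nr4a3 (exact permutation, adjusted p = 0.0243 each). The other 3 of the 5 pairs stood at 0.0583. Of 12959 other genes 5.76% reached r = 0.7 with Egr1 in the titled GFP+ arrays and 5.54% with Btg2. Among titled GFP- arrays r was positive for 12 of 28 pairs, with a median of -0.152, and 0 passed adjustment, with 3 at an unadjusted exact permutation p under 0.05. The difference between the fractions was not tested. Arrays titled GFP+ share their pool's sort and extraction, whose part in this was not tested. The permutation also takes vehicle and undecanal arrays as independent of each other. Between same-numbered titled GFP+ arrays of the agents, r of the deviations was 0.33, 0.15, 0.094 and 0.037 for replicates 1 to 4. If same-numbered arrays are not independent, the exact permutation p-values may be too small, which was not tested.

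**Figure D4:**
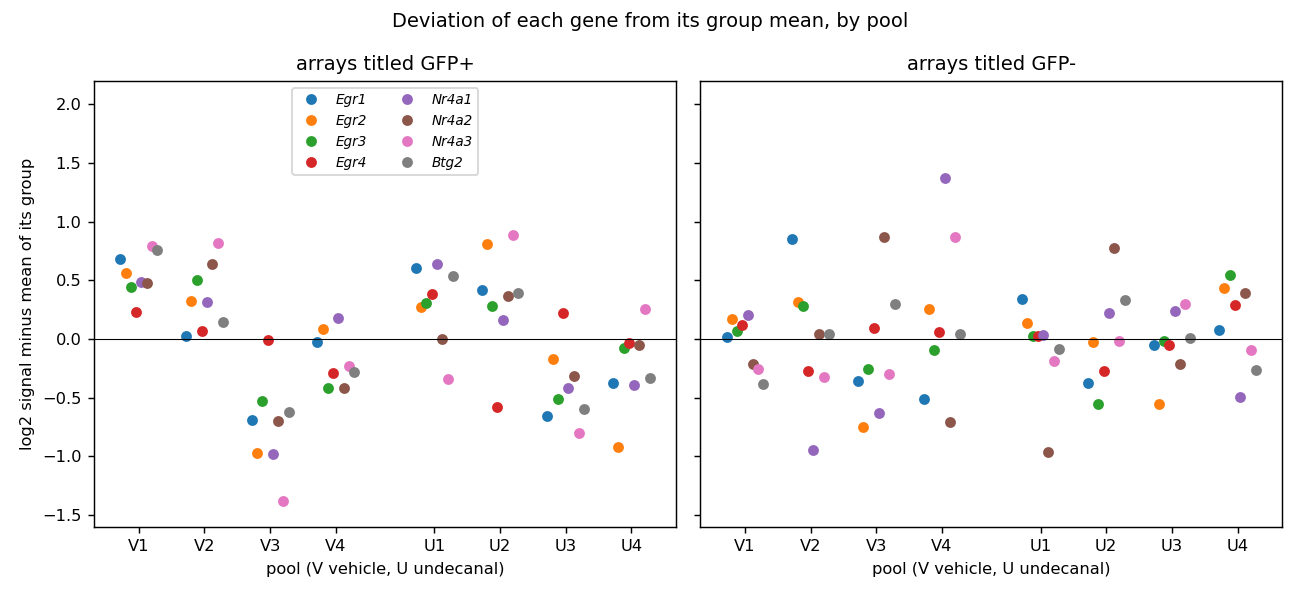
Deviation of each gene from the mean of its group in log2 units (y axis) for each of 8 pools, in titled GFP+ (left) and titled GFP- arrays (right); each point is 1 gene on 1 array. On the left most genes lie above 0 in pools 1 and 2 and below 0 in pool 3, on the right the genes scatter.

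Genes most like each member were sought by r of deviations from group means over all 16 arrays, as a description. For Egr1 these were Gm4759 (0.919), Slco4c1 (0.900) and the AP-1 gene Fosb (0.876), and for Btg2 Cyria (0.898), the stress-responsive factor gene Atf3 (0.893) and A630001G21Rik (0.861). Egr2 was followed by Tec (0.889), Pnrc1 (0.877) and Gm14305 (0.868), and Egr3 by Bank1 (0.818), Dusp1 (0.815) and Dennd1c (0.811). Nr4a1 was closest to Jam3 (0.870), Desi1 (0.866) and Zup1 (0.864), Nr4a2 to Was (0.831), Gm6034 (0.808) and Zfp710 (0.800), and Nr4a3 to Psmg4 (0.845), Chst15 (0.812) and Pogz (0.811). Egr4, at background, came closest to Mov10 (0.855), Gga2 (0.851) and Olfr1367 (0.808).

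Other genes of the same response were followed as lists, chosen with earlier results of these data known. Over all probe sets 8.82% passed as higher and 5.12% as lower with vehicle, and 8.83% and 4.36% with undecanal. Of 30 other immediate early genes 20 passed as higher and 0 as lower in the titled GFP+ fraction of vehicle pools (median 1.15), and 18 as higher and 1 as lower in undecanal pools (median 1.33). Zfp36, which encodes the RNA-destabilising protein tristetraprolin, was higher by 6.36 and 6.11 log2 units. Plk2, Rgs2 and Ier3 also passed in both agents and were below background in the titled GFP- arrays of both. Npas4 and Arc, known as activity genes of neurons, were below background in all 4 groups. Npas4 is the gene that passed as lower in undecanal pools, and Arc is among those that passed as higher in vehicle pools, so both calls lie within background signal. Among 7 AP-1 genes, whose products bind beside Egr proteins at many promoters, 5 passed as higher in both agents, led by Fosb (4.87 and 4.96), Fos (4.79 and 5.08) and Junb (4.09 and 4.00).

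Genes acting upstream, as feedback or as partners were listed too. The shares of all probe sets beside them are 8.82% higher and 5.12% lower with vehicle, and 8.83% and 4.36% with undecanal. Of 12 ERK feedback genes 6 passed as higher and 1 as lower with vehicle, and 4 as higher and 1 as lower with undecanal. Among them was the ERK phosphatase gene Dusp6 (1.78 and 1.68). Dusp2, which passed as higher with both agents (1.04 with undecanal), was below background in all 4 groups, so both calls lie within background signal. Of 19 measured upstream kinase and factor genes 2 passed as higher in vehicle pools (Mef2c by 2.65, Mrtfa by 0.51) and 1 in undecanal pools (Mef2c by 2.19), while Srf and Creb1 differed by 0.30 and -0.02 in vehicle pools and did not pass. Of 11 measured partners and relatives 1 passed as higher with vehicle, and 2 as higher and 1 as lower with undecanal. With vehicle the counts of upstream genes and of partners lie near the share of all probe sets, so they are not read as results about these lists. Btg1, the closest relative of Btg2, was higher by 1.53 and 1.36. Nab2, which encodes a corepressor of Egr proteins, differed by 0.44 and 0.46 and did not pass. By contrast, 5 of 6 genes raised by olfactory activity, S100a5 among them, passed as lower in the titled GFP+ fraction of vehicle pools and 4 of 6 in undecanal pools.

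**Figure D5:**
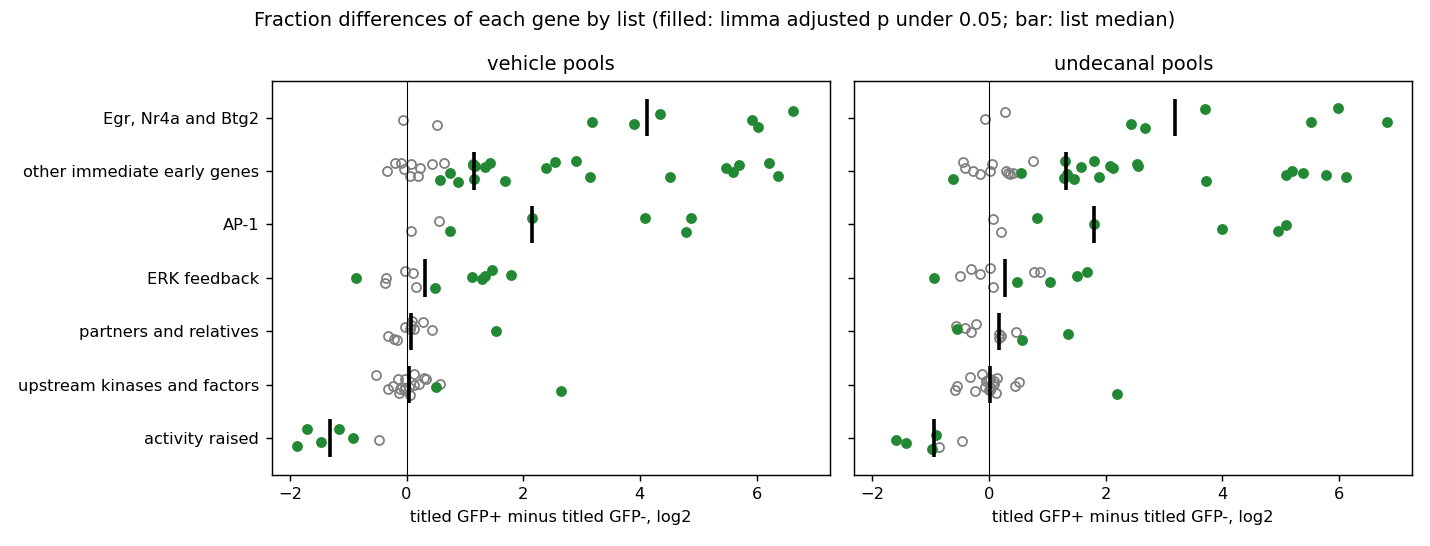
Difference between titled GFP+ and titled GFP- arrays in log2 units for each gene of the lists, in vehicle and undecanal pools, with list medians. The 8 genes have medians of 4.12 and 3.19, other immediate early genes 1.15 and 1.33, and the activity-raised genes -1.31 and -0.94. The medians of the 8 genes lie midway between Nr4a2 and Nr4a3, whose titled GFP- arrays lay partly or wholly below background.

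Markers of several other cell types moved with the fraction. Over all probe sets 8.82% passed as higher and 5.12% as lower with vehicle, and 8.83% and 4.36% with undecanal. Neutrophil markers passed as higher in the titled GFP+ fraction for 10 of 10 genes in both agents, with medians of 8.83 and 8.85 log2 units. Their summed level was 18.0 to 18.8 in titled GFP+ and 8.02 to 8.75 in titled GFP- arrays of vehicle pools, and 18.0 to 18.6 against 7.92 to 8.47 in undecanal pools. Camp, Mmp8, Csf3r and Cxcr2 were below background in the titled GFP- arrays of vehicle pools, and S100a8, S100a9, Retnlg, Camp, Ltf, Mmp8 and Csf3r in those of undecanal pools. Monocyte and macrophage markers passed as higher for 11 of 12 genes in both agents, with summed levels of 14.7 to 15.1 against 7.58 to 8.43 in vehicle and 13.9 to 15.3 against 7.86 to 8.39 in undecanal pools. Of these markers 9 of 12 were below background in the titled GFP- arrays of each agent, and Aif1 was in all 4 groups. Microvillar markers passed as higher in vehicle pools for 6 of 6 genes, sustentacular for 5 of 7 and immature neuron for 6 of 10. In the same pools lymphocyte markers passed as higher for 4 of 7, basal progenitor for 4 of 8 and erythroid for 2 of 2. Endothelial markers passed for 0 of 4 and ensheathing glia for 0 of 2. Neurog1, Krt5, Krt14 and Trp63, of the basal progenitor list, were below background in all 4 groups. Of 12 mature neuron markers 0 passed as higher and 1 as lower. The part of these cells in the differences of Egr1, Egr2, Btg2 and the Nr4a genes was not tested.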

How the data were processed

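The authors deposited log2 summaries per probe set. Per the submitters' processing notes, they came from Affymetrix Expression Console, whose algorithm, version and annotation build stay "not given in the sources used here". Leaving out 6640 controls of 28846 rows kept 22206 probe sets for testing. Each of 19572 probe sets had 1 symbol, 2634 had none and 0 had several. Where a gene had several probe sets, the one with the highest mean was used. Values ran from log2 1.44 to 19.7, with a precision limited by the number of arrays.

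Groups followed the titles. limma 3.58.1 in R 4.3.3 (lmFit, eBayes, no block) estimated 4 group means from the 16 arrays together. Benjamini-Hochberg adjustment ran over every probe set tested (threshold 0.05). Correlations used two-sided exact permutation within agent (Python 3.11.15, scipy 1.17.1). The fit was tested on simulated data over 10 runs for the vehicle fraction comparison of 22206 probe sets, where 97.6% of changes of size 2 and 68.7% of size 1 (log2) were recovered and 4.85% of calls were false.

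Same-numbered fractions of 1 agent come from the same mice. In these pairs, r of the deviations lay between 0.0709 and 0.373 and exceeded 0.1 for 7 of 8 pools. Pool as a block, other scalings, filters, prior settings, array weights and left-out pools were tried as alternatives. Genes, lists and tests were chosen with earlier results of these data known. Named genes are all 8 members, from each list up to 4 passing genes with the largest vehicle fraction difference (or the 2 smallest p where none passed), the 3 genes most like each member, S100a5 and Omp. The text names part of these, and other list genes (Npas4, Arc, Srf, Creb1 and Nab2, and the neutrophil and macrophage markers below background) were named after their values were seen. Promoters come from the RefSeq table of GRCm38.p6.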

Additional observations from a re-analysis of the deposited data

Results flagged for a closer look

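A single array stood apart from the other 3 of its group in 4 of 48 groups examined (10 probe sets of the 8 genes, S100a5 and Omp, each in 4 groups), and chance flags about 1 in 20 such groups. All 4 were in titled GFP- arrays of vehicle pools. Egr2 read 4.98 in pool 3, against 5.90 to 6.04 in the others. Nr4a3 read 4.03 in pool 4, against 2.84 to 2.90, and all 4 values are under the background level. Egr4, also under background, read 3.89 in pool 2, and Omp read 18.7 in pool 2.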

How the results depend on the processing

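Calls of Egr1, Egr2, Nr4a1, Nr4a2, Nr4a3 and Btg2 between fractions kept direction and side of the threshold under every alternative run. The count of 6 rose to 7 in vehicle pools when the probe sets of a gene were averaged (Egr3 0.66), and Egr3 also passed with its probe set on an assembled chromosome (0.97 and 0.81), an alternative chosen after seeing the data. A replicate block for the pool, which pairs the fractions, left the counts at 6 and 6 between fractions and 0 for undecanal and the interaction, and changed no other call of these 8 genes. Over all probe sets it moved the vehicle fraction calls from 1959 higher and 1138 lower to 2169 and 1578 (random block) or 2093 and 1410 (fixed block). Background from negative controls was log2 8.70, against 4.80, and put 4 of the 8 genes under it in all groups and all 8 in titled GFP- arrays, so that the folds of Egr1, Egr2, Btg2 and Nr4a1 in vehicle pools become bounds of 19.9, 12.5, 8.81 and 2.71. Co-variation by Pearson's r in titled GFP+ arrays fell from 5 pairs to 2 with arrays centred on their median. Reversals occurred in values that had not passed. Between fractions, Egr4 became 0.14 (vehicle) and 0.12 (undecanal) with arrays centred on mature neuron genes and 0.0029 (undecanal) with array weights, and Egr3 in undecanal pools became -0.084 with median centring and -0.068 with quantile normalization. For the undecanal difference in titled GFP+ arrays, Nr4a2 became -0.012 with quantile normalization and -0.12 with array weights, and Egr3 0.011 with its other probe set. In titled GFP- arrays Egr3 became 0.10 with averaged probe sets and 0.17 with its other probe set, and the interaction of Egr4 became 0.073 with array weights. With 1 replicate left out, the ranges of results that turned were -0.17 to 0.066 (Egr4, fraction, vehicle), -0.18 to 0.050 (Egr4, fraction, undecanal) and -0.0068 to 0.48 (Egr3, fraction, undecanal). In titled GFP+ arrays the undecanal difference ranged from -0.35 to 0.11 for Egr1, -0.0036 to 0.63 for Egr2, -0.23 to 0.21 for Nr4a2 and -0.37 to 0.089 for Btg2. For titled GFP- arrays the range was -0.26 to 0.20 for Egr1 and -0.13 to 0.30 for Egr2. The interaction ranged from -0.30 to 0.19 for Egr1, -0.079 to 0.65 for Egr2 and -0.13 to 0.11 for Egr4. The cause was not tested. Egr4 gave no value when only probe sets above background were kept, a fixed pool block could not be fitted for the undecanal comparisons, and a fit of only the groups compared gives none for the interaction. Signal at background limits Egr4, Nr4a3 and titled GFP- Nr4a2.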
